A study of Danio rerio with 3 samples.

Results

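Among single wells of sorted zebrafish anal-fin endothelial cells, 258 wells carried a clear blood vessel or a clear lymphatic signature, out of 1036 wells that the authors listed as analysed and 672 of these with at least 500 unique molecular identifiers (UMIs, 1 per captured mRNA molecule). A well counted as a blood well when it held at least 5 UMIs of aqp8a.1, a water channel gene, and none of 4 lymphatic genes. It counted as a lymphatic well when it held at least 2 UMIs of those 4 genes together and at most 2 of aqp8a.1. The 4 genes were lyve1a, a hyaluronan receptor, mrc1a and stab1, scavenger receptors of lymphatic and venous endothelium, and prox1a, a transcription factor that specifies lymphatic fate. These rules gave 126 blood wells (54, 55 and 17 on plates 1, 2 and 3) and 132 lymphatic wells (56, 55 and 21). The other 414 wells were used only for reference.

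The cells came from 80 anal fins of immature fish (stage II-III by the labels) that carried the transgene fli1a:dsRed, in which a promoter active in blood and lymphatic endothelium alike drives a red fluorescent protein. The fins were chopped and enzymatically digested, and dsRed-positive cells were sorted singly into 3 plates of 384 wells for MARS-seq, a plate-based method that counts the 3′ ends of mRNAs. All cells share this transgene, age class and digestion, and there is no treated or mutant group. Which fish each plate holds is not stated, so the p-values measure only the spread between plates, which may be technical. The transgene marks endothelium as a whole, so nothing in the sort separates blood from lymphatic cells.

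Blood and lymphatic endothelial cells share a common endothelial programme. Lymphatic identity is held by Prox1 and the receptor Flt4 (VEGFR3), which responds to Vegfc, and lymphatic cells take up extracellular material through scavenger receptors. Blood capillary cells are known for Vegf signalling through Kdrl, Notch signalling through Dll4, junctions built on VE-cadherin (Cdh5), and exchange structures such as fenestrae and caveolae. The title of the series names conversion of lymphatic into specialised blood vessels, and the comparison of both kinds of well asks which other genes separate them in the growing fin.

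In blood wells the lowest, median and highest count of aqp8a.1 was 5, 15.5 and 83 UMIs, in wells of 506, 1102.5 and 6344 UMIs in all. In lymphatic wells the sum of the 4 lymphatic genes was 2, 4 and 44 UMIs, in wells of 505, 1385.5 and 5468 UMIs. A UMI of lyve1a was found in 107 lymphatic wells, of mrc1a in 77, of stab1 in 66 and of prox1a in 20, and 94 wells held at least 2 of the 4 genes. The wells were chosen by these values, which are therefore given as a description with no test. Just inside the limits lay 11 blood wells with exactly 5 aqp8a.1 UMIs and 35 lymphatic wells with exactly 2 lymphatic UMIs. At the limit on aqp8a.1, 40 lymphatic wells held exactly 2 UMIs of it, and only 45 of the 132 held none. In all, lymphatic wells held 127 aqp8a.1 UMIs and blood wells 2840. Just outside lay 6 wells with 4 aqp8a.1 UMIs and no lymphatic UMI, 73 with enough aqp8a.1 and 1 lymphatic UMI, 20 with enough lymphatic UMIs and 3 of aqp8a.1, and 70 with 1 lymphatic UMI and at most 2 of aqp8a.1. A further 60 wells passed both minimums and so belonged to neither class.

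**Figure D1:**
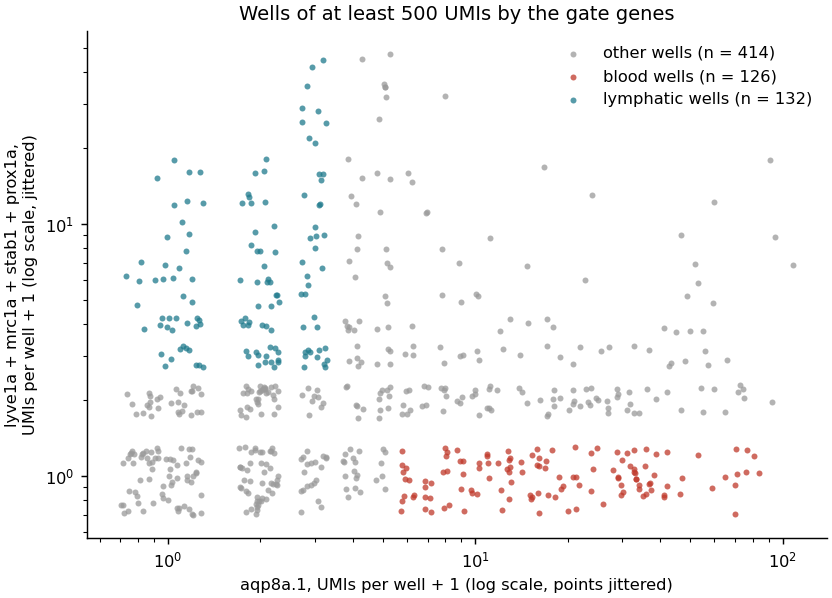
Each point is 1 well of at least 500 UMIs. The horizontal axis gives its aqp8a.1 UMIs plus 1 and the vertical axis its summed UMIs of lyve1a, mrc1a, stab1 and prox1a plus 1, both on log scales with points jittered. The 126 blood wells lie along the bottom right and the 132 lymphatic wells in the upper left, while the 414 other wells (grey) include 60 that are high on both axes.

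For each plate the UMIs of each class were summed, giving 6 sums of 83898, 72875 and 16355 UMIs for blood and 93634, 101774 and 21504 for lymphatic wells, without the 5 genes of the rule. Levels are given as CPM, UMIs per 1000000 UMIs of such a sum. A single UMI equals 11.9, 13.7 and 61.1 CPM in the blood sums of plates 1, 2 and 3 and 10.7, 9.83 and 46.5 CPM in the lymphatic sums, so plate 3 is the coarsest. A count of 0 allows up to 35.8, 41.2 and 183 CPM in blood and 32.0, 29.5 and 139.5 CPM in lymphatic sums (3 counts per sum, counting error only). Every plate uses the same 384 cell barcodes, so barcodes do not separate the plates, and 22 well positions were a blood well on 1 plate and a lymphatic well on another.

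Of 1042 genes tested with edgeR's quasi-likelihood test, with plate as a block, 112 (10.7%) passed a Benjamini-Hochberg adjusted p of 0.05 and are named called below. Of these, 67 (6.43% of genes tested) were higher in blood wells and 45 (4.32%) in lymphatic wells. Counts of calls within gene lists below stand against these shares. The direction was the same in all 3 plates for 110 of the 112, and the plate values of the classes did not overlap for 104. Among all genes tested they did not overlap for 239 (22.9%), 116 (11.1%) higher in blood and 123 (11.8%) higher in lymphatic wells. Called genes were picked by a test on the same 6 sums, which makes both traits likely for them. These counts are therefore a description and no further support. The number of calls depended on the plates used, at 64 without plate 1, 41 without plate 2 and 31 without plate 3, and DESeq2 called 33. In each of 24 alternative analyses, every one of the 112 that was still tested kept its direction. Those called in every alternative that tested them numbered 11: aqp1a.1, plvapa, lpl, esm1, pdgfbb and meox1 on the blood side, and cxcl12a, hapln3, sele, si:ch211-152c2.3 and txn on the lymphatic side. Only 9 of the 112 were tested in all 24, so a gene could stay among the 11 by not being tested in the smaller settings. In wells with no muscle UMI, only aqp1a.1, plvapa and cxcl12a of the 11 were tested.

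**Figure D2:**
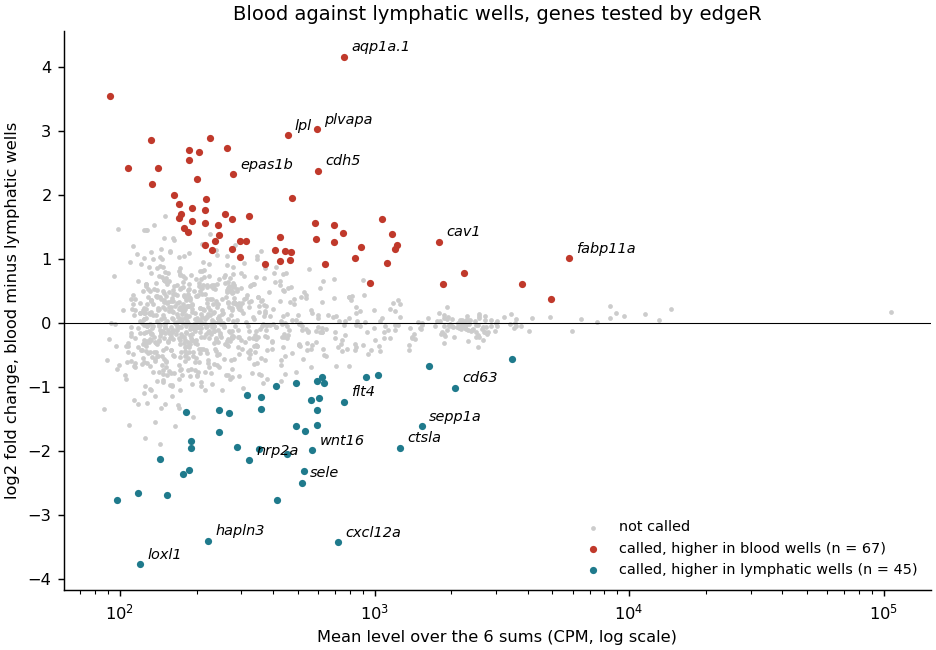
Each point is 1 of the 1042 genes tested. The horizontal axis is the mean level over the 6 sums in CPM (log scale) and the vertical axis the log2 fold change, blood minus lymphatic wells. Among the 67 genes called higher in blood wells (red) aqp1a.1 lies highest at 4.16, and among the 45 called higher in lymphatic wells (teal) loxl1 lies lowest at -3.77.

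The gene furthest to the blood side was aqp1a.1, which encodes aquaporin 1, a water channel of capillary endothelium and red cells. Its level was 1144, 1441 and 1712 CPM in the blood sums of plates 1, 2 and 3 and 85.4, 49.1 and 139.5 CPM in the lymphatic sums. All blood sums lay far above all lymphatic sums. The log2 fold change was 4.16 ± 0.32 (SE), or 17.9-fold (edgeR adjusted p = 4.9e-09). Of the 229 UMIs behind the blood value, the richest well gave 11.8%. The remaining wells of at least 500 UMIs lay between the classes, at 385, 497 and 778 CPM.

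Genes of exchange structures were called in part. The diaphragm protein gene plvapa, a component of fenestrae and caveolae listed in the files as si:dkey-208k22.3, had 632, 1235 and 1223 CPM in blood and 85.4, 108 and 279 CPM in lymphatic sums. Every blood value exceeded every lymphatic value, with a log2 fold change of 3.03 ± 0.32 (edgeR adjusted p = 7.4e-07). Its paralogue plvapb, listed as vsg1, was at 2586, 2607 and 3241 CPM in blood and 3044, 2938 and 3395 CPM in lymphatic sums. Those ranges overlap, with lymphatic above blood on each plate, and the log2 fold change was -0.13 ± 0.12 (edgeR adjusted p = 0.66). Of 6 tested genes of the list on caveolae and diaphragms, 3 were called, all higher in blood: plvapa, cav1, the caveolin that forms the caveolar coat, at log2 1.27 ± 0.22, and ehd2b, an ATPase at the caveolar neck, at 1.02 ± 0.24. The list median was 0.76, against -0.01 over all genes tested.

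Lipid uptake genes followed the same direction. The lipoprotein lipase gene lpl, whose product releases fatty acids from lipoproteins at the capillary wall, had 286, 810 and 1284 CPM in blood and 74.8, 49.1 and 233 CPM in lymphatic sums. Its levels varied between plates by several fold in both classes, but the lowest blood value still lay above the highest lymphatic value, and the log2 fold change was 2.93 ± 0.40 (edgeR adjusted p = 1.8e-05). The fatty acid binding protein gene fabp11a was found in nearly every well of both classes, with 125 wells each. It stood at 8665, 7890 and 6787 CPM in blood and 4688, 4471 and 2418 CPM in lymphatic sums, a log2 fold change of 1.01 ± 0.12 (edgeR adjusted p = 4.0e-06). These were the only tested genes of the 23 on the list of lipid and retinol genes. The retinol binding protein gene rbp7b was too sparse to be tested, with 36 UMIs in blood and 6 in lymphatic wells.

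A list of other blood vessel genes was chosen with earlier results of these data known, so its counts are a description. Of its 17 rows 12 were tested, and 10 were called, all higher in blood wells, with a median log2 fold change of 2.29. Besides aqp1a.1, plvapa, lpl, kdrl and CD93 they included esm1, a proteoglycan secreted by sprouting tip cells, and epas1b, a hypoxia-inducible factor. The others were cxcr4a, a receptor for Cxcl12, aplnra, an apelin receptor, and rgcc, a regulator of the cell cycle. The level of esm1 was 322, 549 and 489 CPM in blood and 85.4, 39.3 and 93.0 CPM in lymphatic sums (log2 2.74 ± 0.44). For epas1b it was 298, 549 and 489 CPM against 85.4, 59.0 and 186 CPM (log2 2.32 ± 0.42). Neither gene's ranges overlap between the classes. Not called in that list were kdr, a second Vegfa receptor gene, at log2 -0.05 ± 0.48, and plvapb. The Vegf receptor gene flt1 was not tested, with 25 UMIs in blood and 2 in lymphatic wells. Its ratio per UMI summed was 15.7 (exact 95% interval 3.91 to 136). Here and below, such intervals pool the UMIs of all plates and cover counting error only. They leave out the spread between wells and plates and are no test.

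Some junction and receptor genes shared by all endothelium were higher in blood wells too. For cdh5, which encodes VE-cadherin, the levels were 811, 1262 and 795 CPM in blood and 246, 78.6 and 419 CPM in lymphatic sums. The classes do not overlap, and the log2 fold change was 2.38 ± 0.37 (edgeR adjusted p = 0.00012). For kdrl, the main Vegfa receptor gene of zebrafish blood vessels, they were 524, 823 and 1345 CPM against 278, 246 and 279 CPM (log2 1.56 ± 0.29). The lymphatic sums were nearly level across plates, while the blood sums spread widely. The adhesion gene pecam1 had log2 1.53 ± 0.26, while a separate row named PECAM1 was at -0.10 ± 0.42 (edgeR adjusted p = 0.95). The junction gene jam2a had log2 1.37 ± 0.38 and the receptor gene CD93 1.70 ± 0.45.

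In the pan-endothelial list, 17 of 22 rows were tested and 5 were called, all higher in blood wells: cdh5, kdrl, pecam1, CD93 and she, an adaptor gene. The 12 others did not pass, among them the transcription factor genes fli1a (log2 0.13) and erg (-0.41), the receptor gene tie1 (-0.07) and egfl7 (-0.01), a secreted vascular protein. All 22 rows had UMIs in both classes, and the summed level was 7593, 9756 and 8927 CPM in blood and 5714, 5463 and 7766 CPM in lymphatic sums. The lymphatic value of plate 3 thus lay above the blood value of plate 1, although blood was higher within each plate (exact permutation test over plates, two-sided p = 0.25, the smallest that 3 plates allow).

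Ligands and transcription factors were represented among the genes higher in blood wells as well. The growth factor gene pdgfbb, which recruits pericytes, had 238, 398 and 367 CPM in blood and 21.4, 59.0 and 139.5 CPM in lymphatic sums (log2 2.67 ± 0.48). A separate row named PDGFB was at log2 1.53 ± 0.39. Of 9 tested tip cell and sprouting genes, 6 were called higher in blood (esm1, dll4, cxcr4a, pdgfbb, mcamb and igfbp1a) and 1 higher in lymphatic wells, marcksl1b, an actin regulator, at log2 -1.61 ± 0.38. The homeobox gene meox1 had 238, 467 and 245 CPM against 32.0, 88.4 and 46.5 CPM (log2 2.55 ± 0.45), with no overlap. It was 1 of 2 genes called among 11 tested SoxF, ETS and related factors, the other being mef2aa at 1.29 ± 0.36. Over all genes tested 10.7% were called, so 2 of 11 is not read as a trait of these factors.

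Notch and arterial genes were called in part. The ligand gene dll4 had 369, 521 and 367 CPM in blood and 149.5, 187 and 279 CPM in lymphatic sums (log2 1.27 ± 0.34, edgeR adjusted p = 0.015). The arterial ligand gene efnb2a, at log2 1.70 ± 0.45, was the only other call of 8 tested, against 10.7% of all genes tested. The receptor gene notch1a, at log2 1.39, and the ligand gene jag2b, at 1.06, did not pass (edgeR adjusted p = 0.066 and 0.15). SoxF factors, which act upstream of arterial and lymphatic fate, gave no call. For sox7 the log2 fold change was 0.59 ± 0.32 (edgeR adjusted p = 0.32), and sox17 (6 and 2 UMIs) and sox18 (4 and 1) were too sparse to be tested.

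Basement membrane genes were represented by the collagen IV pair that forms 1 trimer. The level of col4a1 was 1275, 1798 and 1834 CPM in blood and 726, 648 and 930 CPM in lymphatic sums (log2 1.16 ± 0.19), without overlap. For col4a2 the log2 fold change was 2.70 ± 0.61, from 49 and 9 UMIs. The remaining 4 tested genes of that list did not pass, and all 6 had a positive log2 fold change.

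**Figure D3:**
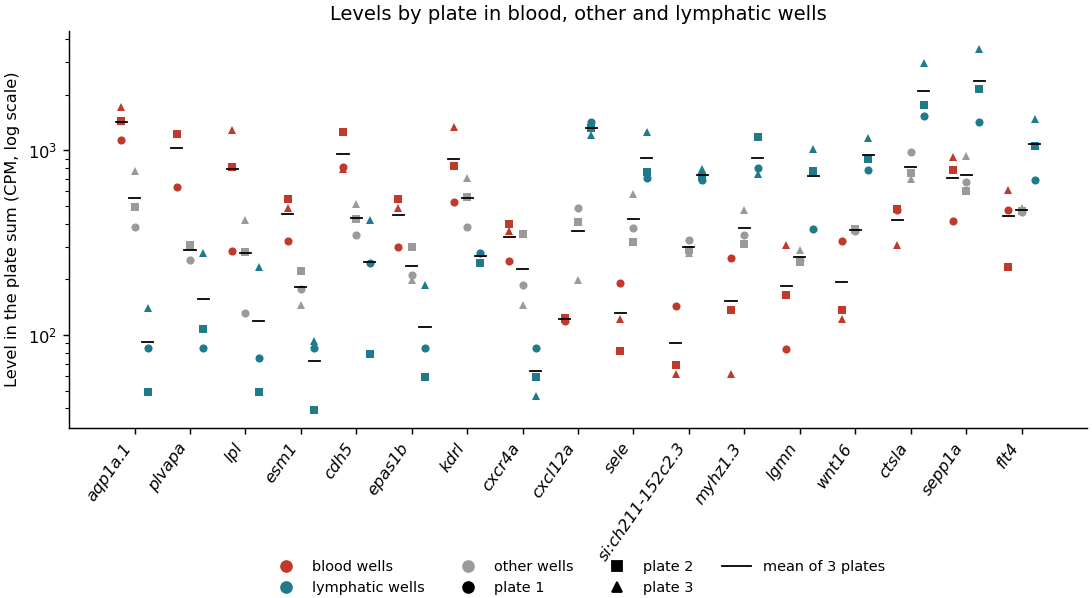
Each symbol is the level in CPM (log scale) of 1 gene in the sum of 1 class on 1 plate, with circles, squares and triangles for plates 1, 2 and 3, and the black bar is the mean of 3 plates. From aqp1a.1 to cxcr4a the blood sums (red) lie above the lymphatic sums (teal), from cxcl12a to flt4 below, and the means of the other wells (grey) lie between them in each of the 17 genes.

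On the lymphatic side cxcl12a had a large fold change and even levels across plates. It encodes the chemokine Cxcl12, the ligand of Cxcr4. Its level was 1431, 1326 and 1209 CPM in lymphatic sums and 119, 123 and 122 CPM in blood sums. The plates of a class differ by little and the classes lie far apart. The log2 fold change was -3.43 ± 0.29, or 10.7-fold (edgeR adjusted p = 1.8e-08). Of 295 UMIs in lymphatic wells the richest well gave 8.5%, and 86 lymphatic wells held at least 1 UMI against 17 blood wells. When every well was thinned to 500 UMIs, 43.2% of lymphatic and 6.35% of blood wells held a UMI. No cell type without the gene was sorted, so the share that free RNA gives was not measured. The receptor gene cxcr4a went the other way, at 250, 398 and 367 CPM in blood and 85.4, 59.0 and 46.5 CPM in lymphatic sums (log2 2.25 ± 0.45).

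Of 16 rows in a list of other lymphatic genes 10 were tested and 5 called, all higher in lymphatic wells: cxcl12a, cldn11b, nrp2a, mafba and flt4, with a list median of -1.22. This list too was chosen with earlier results of these data known, so its counts are a description. The level of flt4, the Vegfc receptor gene, was 694, 1051 and 1488 CPM in lymphatic and 477, 233 and 611 CPM in blood sums. These ranges are close, with the highest of each class on plate 3, and the log2 fold change was -1.23 ± 0.28 (edgeR adjusted p = 0.0048). The co-receptor gene nrp2a had 438, 373 and 884 CPM in lymphatic and 191, 41.2 and 0 CPM in blood sums (log2 -2.14 ± 0.45). The claudin gene cldn11b, a tight junction component, was at log2 -2.36 ± 0.55 and mafba, a transcription factor gene, at -1.71 ± 0.43.

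Not called were nr2f2, a venous and lymphatic transcription factor gene, at log2 -1.21 ± 0.62 (edgeR adjusted p = 0.30), nrp2b, tie1, angpt2a and tbx1, the last 4 between -0.41 and -0.00. Paralogues of the genes of the rule were too sparse to be tested. The hyaluronan receptor gene lyve1b had 21 UMIs in lymphatic wells and 1 in blood wells, a ratio of 16.8 (exact 95% interval 2.70 to 693), and mrc1b had 27 and 1, a ratio of 21.6 (3.55 to 882). Reads could be shared between such paralogues, since the counting step is not given in the sources used here. The scavenger receptor gene stab2 was not used here.

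The ligand gene wnt16, which encodes a secreted Wnt, was at 780, 894 and 1163 CPM in lymphatic and 322, 137 and 122 CPM in blood sums. Lymphatic sums exceeded blood sums in each plate without overlap, with a log2 fold change of -1.99 ± 0.31 (edgeR adjusted p = 0.00015). It was 1 of 2 genes called among 5 tested Wnt and BMP genes, against 10.7% of all genes tested. The other, id1, a BMP-responsive gene, was higher in blood wells at log2 0.92 ± 0.27. The selectin gene sele, an adhesion receptor of activated venous endothelium, stood at 705, 766 and 1256 CPM in lymphatic sums. In blood sums it stood at 191, 82.3 and 122 CPM (log2 -2.50 ± 0.33), again without overlap. Of 4 tested venous genes, flt4 and sele were called higher in lymphatic wells and aplnra in blood wells. The venous list summed to 1645, 2181 and 3069 CPM in lymphatic and 1132, 700 and 1223 CPM in blood sums. Whether the lymphatic wells include venous cells was not tested.

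A list of endocytic and lysosomal genes, which also held the hyaluronan link protein gene hapln3, leaned to lymphatic wells. Of its 31 rows, 16 were tested and 4 called, all higher in lymphatic wells, against 4.32% of all genes tested. The list median was -0.78 against -0.01 over all genes tested. Its members were chosen with earlier results of these data known, so these values are a description. The cathepsin L gene ctsla, a lysosomal protease, had 1538, 1769 and 2976 CPM in lymphatic and 477, 480 and 306 CPM in blood sums (log2 -1.95 ± 0.21, edgeR adjusted p = 1.0e-06). Legumain (lgmn), another lysosomal protease, had 374, 776 and 1023 CPM against 83.4, 165 and 306 CPM (log2 -2.04 ± 0.32). Both genes separated the classes on every plate without overlap. The tetraspanin gene cd63, a component of late endosomes, was at log2 -1.01 ± 0.16, and hapln3, a link protein that binds hyaluronan, at -3.40 ± 0.58 from 60 and 4 UMIs. Among the 12 members that did not pass, the protease genes ctsba and ctsd had log2 -1.55 and -0.92 (edgeR adjusted p = 0.086 and 0.39), while rab7, rab5aa and psap lay between -0.04 and 0.36.

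Matrix and other genes with large differences on the lymphatic side included loxl1, a lysyl oxidase that cross-links elastin. It had 42 UMIs in lymphatic and 2 in blood wells, a ratio of 16.8 with an exact 95% interval of 4.36 to 143 (fitted log2 -3.77 ± 0.89). The row si:ch211-152c2.3 had 694, 717 and 791 CPM in lymphatic and 143, 68.6 and 61.1 CPM in blood sums (log2 -2.76 ± 0.35). The selenoprotein P gene sepp1a, a selenium carrier, had 1431, 2142 and 3534 CPM in lymphatic and 417, 782 and 917 CPM in blood sums, at log2 -1.62 ± 0.17. The thioredoxin gene txn, a redox protein, was at log2 -1.96, the glutathione transferase gene gstt1b at -2.70 ± 0.50 and the transcription factor gene foxp4 at -2.67 ± 0.63. The level of gstt1b was 299, 373 and 139.5 CPM in lymphatic and 47.7, 54.9 and 0 CPM in blood sums. For foxp4 it was 214, 275 and 139.5 CPM against 11.9, 68.6 and 0 CPM. Both fold changes thus rest on few UMIs in blood wells. On the blood side scinla, an actin-severing protein gene, had 29 UMIs against 3, a ratio of 12.11 (exact 95% interval 3.75 to 62.1).

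The sphingosine-1-phosphate pathway was divided. The exporter gene spns2 was higher in blood wells (log2 1.11 ± 0.32) and the receptor gene s1pr1 in lymphatic wells (-1.36 ± 0.37). Among 4 tested flow-responsive genes, klf2b was called at log2 -1.18 ± 0.28, higher in lymphatic wells, whereas klf2a was at -0.21 (edgeR adjusted p = 0.81). Among 21 tested immediate-early and stress genes only cebpb, a transcription factor gene, was called (log2 -1.69 ± 0.29), and fosab, jun and egr1 lay between -0.35 and -0.27. Among the 10 tested annexin, S100 and Crip genes, anxa1a and icn were higher in lymphatic and crip2 in blood wells. The share called over all genes tested was 10.7%, and these lists are small.

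No member was called among 25 tested actin genes, 6 cell cycle genes, 3 solute carriers, 3 integrins and 2 antigen presentation genes. The median log2 fold change of the actin list was 0.02. For pcna, a replication factor gene, the level was 298, 192 and 673 CPM in blood and 555, 589 and 372 CPM in lymphatic sums, and the ranges overlap (log2 -0.79 ± 0.34, edgeR adjusted p = 0.18). The cell cycle list summed to 5066, 3293 and 3057 CPM in blood and 5895, 4382 and 4371 CPM in lymphatic sums. Lymphatic was higher on each plate, though the ranges overlap (exact permutation test over plates, two-sided p = 0.25, the smallest possible). Of the 6 tested members, 5 had a negative log2 fold change and 1 a positive one. The gene cdk1 was not tested, with 2 UMIs in blood and 20 in lymphatic wells. Its ratio was 7.98 (exact 95% interval 1.94 to 70.4). The nuclear long non-coding RNA malat1 was at log2 0.16 ± 0.13 (edgeR adjusted p = 0.57). A gene that misses the threshold here is not shown to be equal in both classes.

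**Figure D4:**
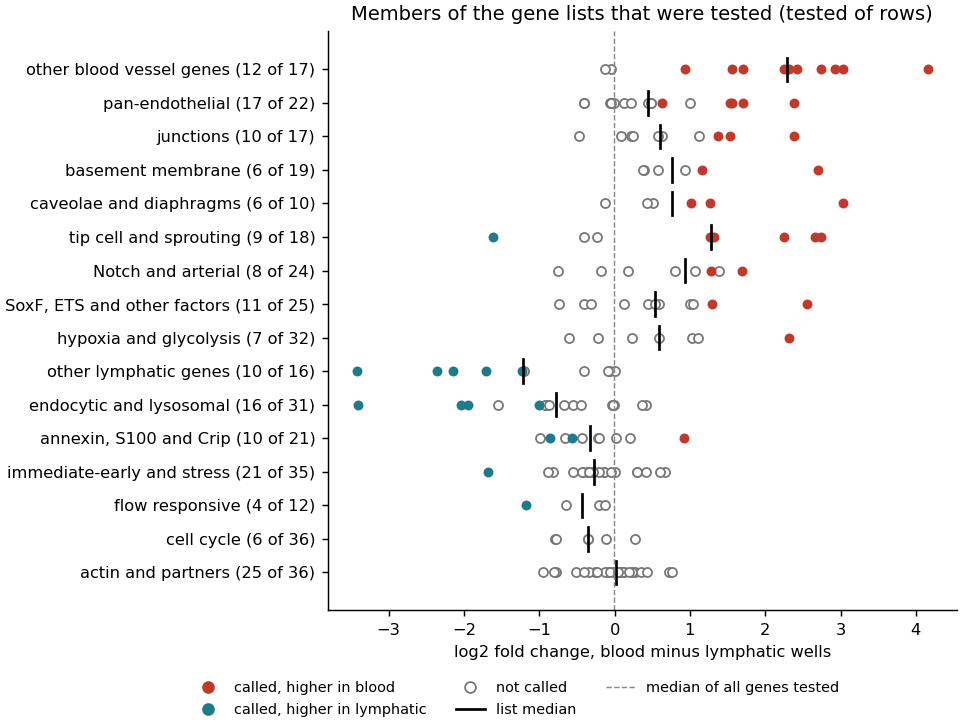
Each point is a tested member of a gene list, placed by its log2 fold change, blood minus lymphatic wells, with filled points for called genes, a black bar for the list median and a dashed line for the median of all genes tested. Numbers after the list names are members tested of rows in the files. The lists were chosen with earlier results of these data known. The called members of the other blood vessel genes lie to the right (median 2.29), those of the other lymphatic genes (median -1.22) and of the endocytic and lysosomal genes (median -0.78) to the left.

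The other wells of at least 500 UMIs lay between the classes in mean level for 107 of the 112 called genes, against 571 of all 1042 genes tested. Called genes were picked for a gap between the same 2 classes, which makes a middle value more likely for them. The 2 counts are therefore a description and no test. The other wells include wells with a single lymphatic UMI, with too little aqp8a.1 or with both signatures. Among them, 73 had enough aqp8a.1 and 1 lymphatic UMI, and 60 passed both minimums. Another 156 had under 5 aqp8a.1 UMIs and no lymphatic UMI, and 70 had 1 lymphatic UMI and at most 2 of aqp8a.1. How far the numbers of calls against them depend on this mix was not tested. Against them, lymphatic wells differed in 120 of 1236 genes tested (9.71%), with 58 higher in lymphatic (4.69%) and 62 in other wells (5.02%). Blood wells differed in 20 of 1004 (1.99%). Both comparisons share sums with the first one. For cxcl12a the other wells had 485, 410 and 198 CPM, below lymphatic wells (log2 1.73 ± 0.19, edgeR adjusted p = 7.3e-16) and above blood wells (log2 -1.79 ± 0.36, edgeR adjusted p = 9.2e-05). The selenoprotein gene sepp1a, in contrast, had 676, 605 and 937 CPM in other wells, a log2 fold change of 1.53 ± 0.15 between lymphatic and other wells, and of -0.13 ± 0.22 between blood and other wells (edgeR adjusted p = 0.92).

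On the blood side the 20 calls against other wells included aqp1a.1 (log2 1.44 ± 0.20), plvapa (1.72 ± 0.23), lpl (1.41 ± 0.26), cdh5 (1.25 ± 0.22) and fabp11a (0.50 ± 0.09). In the lymphatic comparison the same genes were lower in lymphatic than in other wells, by log2 values from -2.70 for aqp1a.1 to -0.51 for fabp11a. Receptor genes kdrl and pecam1 differed from other wells in lymphatic wells (log2 -0.96 ± 0.25 and -1.19 ± 0.23), and did not pass in blood wells (0.58 ± 0.22 and 0.32 ± 0.20, edgeR adjusted p = 0.19 and 0.68). Whether those 2 differences themselves differ was not tested. Without the plate block the calls against other wells were 34 for lymphatic and 3 for blood wells, and without plate 2 they were 23 and 6. They were 72 and 18 without plate 1, and 22 and 13 without plate 3.

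Markers of other cell types moved with the classes in part. Skeletal muscle genes summed to 381, 357 and 367 CPM in blood and 2478, 1572 and 977 CPM in lymphatic sums, with UMIs of 11 and 17 of the 22 rows. The myosin heavy chain gene myhz1.3, a member of a family of near-identical copies, made up much of this, at 801, 1179 and 744 CPM in lymphatic and 262, 137 and 61.1 CPM in blood sums (log2 -2.32 ± 0.32). Without it the list had 119, 220 and 306 CPM in blood and 1677, 393 and 233 CPM in lymphatic sums, and was higher in blood on plate 3. On plates 1, 2 and 3, no muscle UMI was found in 32, 34 and 14 of the 54, 55 and 17 blood wells. Of the 56, 55 and 21 lymphatic wells, 19, 15 and 10 held none. In these 124 member wells without any muscle UMI, 5 of 292 tested genes were called, namely aqp1a.1, plvapa, cxcl12a, cd63 and fabp11a. There the log2 fold change was 3.40 for aqp1a.1 and -2.28 for cxcl12a, both called, and all 45 of the 112 that were tested kept their direction. For wnt16 it was -1.18 (edgeR adjusted p = 0.42), for ctsla -1.07 (0.24), for cdh5 1.47 (0.15) and for cav1 0.56 (0.26). For flt4 it was -0.61 (0.72), against -1.23 in all member wells, and for pecam1 0.64 (0.65), against 1.53. For id1 it was larger than in all member wells, at 1.62 (0.077) against 0.92.

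Macrophage markers, relevant because mrc1a, stab1, ctsla and lgmn are also macrophage genes, were sparse in both classes. They totalled 21 UMIs in blood and 18 in lymphatic wells, or 107, 68.6 and 428 CPM in blood and 53.4, 59.0 and 326 CPM in lymphatic sums. These were higher in blood on each plate, and mpeg1.1, csf1ra, marco, c1qb and c1qc had no UMI in either class. Lymphocyte markers had 0 and 1 UMI, and pigment, Schwann cell and neuron markers 3 and 3. Fibroblast markers had 24 and 78 UMIs, summing to 131, 178 and 0 CPM in blood and 267, 364 and 744 CPM in lymphatic sums. The fibroblast genes lum, pdgfra and twist1a were at 0, and 46 of the lymphatic UMIs came from ogn and postnb. Pericyte and smooth muscle markers had 87 and 141 UMIs, or 513, 357 and 1101 CPM in blood and 726, 658 and 279 CPM in lymphatic sums, which overlap. Neutrophil markers other than srgn ranged from 54.9 to 306 CPM in blood and from 177 to 1395 CPM in lymphatic sums, and thrombocyte markers from 23.8 to 61.1 and from 74.8 to 128 CPM. Their part in the results was not tested one by one.

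Globin mRNA ran the other way, at 1371, 398 and 122 CPM in blood and 32.0, 206 and 0 CPM in lymphatic sums. Without globin, ribosomal protein and mitochondrial rows 104 of the 109 calls still tested were called again. That setting removed only the rows and kept the wells. It cannot show what part other RNA accompanying globin had, which was not tested on its own. The keratin genes krt8 (log2 0.62 ± 0.12) and krt18 (0.78) were higher in blood wells, and 122 blood and 127 lymphatic wells held a UMI of krt8. Also called was krt94, which is not on the keratinocyte list, at log2 1.21 ± 0.27 (edgeR adjusted p = 0.0041). Its level was 1108, 2950 and 1101 CPM in blood and 1015, 639 and 558 CPM in lymphatic sums. A separate row named KRT18 had 667, 412 and 734 CPM in blood and 705, 678 and 1116 CPM in lymphatic sums (log2 -0.38 ± 0.24, edgeR adjusted p = 0.43). Keratinocyte markers without krt8 overlapped between classes, at 691 to 1304 CPM in blood and 372 to 1004 CPM in lymphatic sums.

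**Figure D5:**
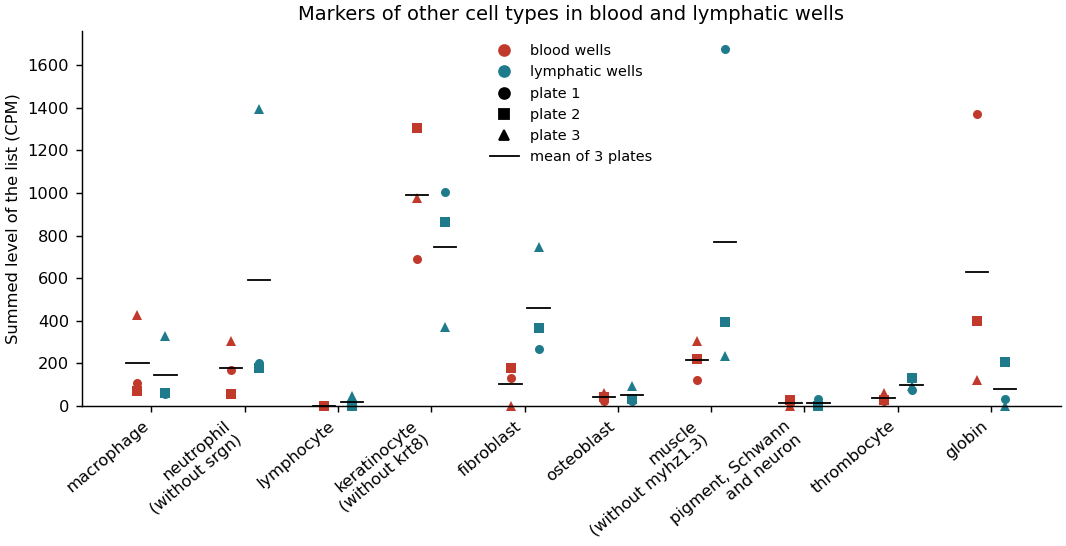
Each symbol is the summed level in CPM of a list of marker genes of another cell type in 1 class on 1 plate, with circles, squares and triangles for plates 1, 2 and 3, red for blood and teal for lymphatic wells, and a black bar for the mean of 3 plates. Muscle markers without myhz1.3 reach 1677 CPM in lymphatic wells of plate 1, globin reaches 1371 CPM in blood wells of plate 1, and lymphocyte and pigment, Schwann and neuron markers lie at or near 0 in both classes.

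Blood wells were shallower, with a median of 1196, 1309 and 742 UMIs on plates 1, 2 and 3 against 1390, 1501 and 859 in lymphatic wells. Ribosomal protein mRNA made up 17.4%, 15.4% and 14.0% of blood and 18.0%, 16.5% and 15.7% of lymphatic UMIs. Both were lower in blood wells on all 3 plates (exact permutation test over plates, two-sided p = 0.25, the smallest possible). For depth the test cannot separate a trait of the class from the rule, which itself depends on depth. Shallow wells more easily lack lymphatic UMIs and deep wells more easily reach their minimum, while the aqp8a.1 limits act the other way. The depth difference is therefore given as a description. With each member well thinned to 500 UMIs, 55 of 351 tested genes were called.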

How the data were processed

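The 3 tables hold raw UMI counts per gene and well, 1 table per plate, as deposited by the authors; per the submitters' processing notes Bowtie2 and the build GRCz10 were used, and the counting tool is not given in the sources used here. Wells were taken from the authors' own list of analysed wells. Members and gene lists were chosen with earlier results of these data known. UMIs were summed per plate and class, without the 5 genes of the rule and 92 spike-in rows, which held 0 UMIs. Genes were tested with edgeR 4.0.16 (R 4.3.3): filterByExpr, TMM scaling, glmQLFit and glmQLFTest, plate as a block, Benjamini-Hochberg adjustment over all genes tested, threshold 0.05. Standard errors are the absolute log2 fold change divided by the root of F. DESeq2 1.42.0 was an alternative. The script was tested on simulated data. Both classes of a plate come from 1 labelled sample, which is the pairing; the deviations of its 2 sums from the class means correlated at 0.03, -0.00 and 0.05 over 1042 genes (plates 1, 2 and 3). Class values were compared by exact permutation over plates.

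The text names, in each direction, the 15 called genes of largest fold change with at least 20 UMIs and the same direction on all plates. It also names called list members, up to 2 members of lists without a call, and a set of endothelial genes of interest. The genes krt18, krt94, flt1, mrc1b and other sparse or uncalled list members were added after their values were seen. Not every gene the rule allows is printed. Doublet calling was not run, since 1 cell was sorted per well. No sequences were used here.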

Additional observations from a re-analysis of the deposited data

Results flagged for a closer look

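Plate 3 holds 116 wells that are not on the authors' list of analysed wells and that no comparison above uses, 45 of them with at least 500 UMIs. Of these, 12 met the rule for blood wells and 7 the rule for lymphatic wells, a signal outside the wells that the report rests on. Why they are off the list is not given in the sources used here. With the wells that met a rule added to their class, 122 of 1063 tested genes were called, and 106 of the 110 earlier calls still tested were called again.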

How the results depend on the processing

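The 112 calls between blood and lymphatic wells were 31 to 64 with 1 plate left out, 33 with DESeq2 and 117 with no replicate block, of which 109 were among the 112; the pairing by plate thus changed few calls here. In most settings with fewer wells or UMIs, fewer genes were tested than the 1042 of the main fit. Without plate 3, however, more genes were tested, 1194, and 31 were called. Calls numbered 129 of 913 genes tested with at least 3 lymphatic UMIs and 52 of 800 in wells of at least 1000 UMIs. They were 7 of 319 with lymphatic wells of 0 aqp8a.1 and 70 of 813 without wells at shared positions. Shared here means that a well of the same class lay at that position on another plate, which held for 28 blood and 33 lymphatic wells. With wells thinned to 500 UMIs before and after the rule they were 54 of 273 and 55 of 351. Without wells carrying 3 or more stray-marker UMIs, krt8 included, they were 3 of 110. Among alternatives chosen after seeing the data, the same without krt8 and srgn gave 39 of 425. Wells with no muscle UMI gave 5 of 292, and lymphatic wells with at least 2 UMIs of lyve1a 67 of 860. Calls of blood and of lymphatic against other wells were 4 and 26 with DESeq2, 3 and 34 with no replicate block, and 6 to 18 and 22 to 72 with 1 plate left out. Of 1466 values of named genes under an alternative, 1226 stayed on their side of the threshold, 237 fell short of it and 2 newly passed. The remaining 1 passed with the opposite sign: rgs5b, at log2 1.24 with wells thinned before the rule against -0.11. It is a signalling regulator gene on the list of pericyte and smooth muscle markers. A gene called in neither fit counts among the 1226 even where its sign changed. An example is plvapb, at log2 0.003 in wells with no muscle UMI. The cause of these changes was not tested in any setting, including those with fewer genes or wells. Depth limits all of this most on plate 3, where 1 UMI of a blood sum is 61.1 CPM.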

Other observations

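Several called genes outside the lists separate the classes as well. Higher in blood wells were aoc2, an amine oxidase gene, at log2 2.85 ± 0.84 from 30 and 5 UMIs, the protocadherin gene pcdh19 at 2.00, the cyclin gene ccnd2a at 1.94, podxl, a sialomucin of the luminal membrane, at 1.41, and the neuronal membrane glycoprotein gene gpm6aa at 1.95. The level of podxl was 1192, 919 and 1162 CPM in blood and 363, 462 and 419 CPM in lymphatic sums, and that of gpm6aa 572, 851 and 917 CPM against 299, 147 and 46.5 CPM. Neither overlapped between classes.

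Higher in lymphatic wells were the adhesion gene cdh6 at log2 -0.67, the tetraspanin gene cd81a at -0.84, vwa1, a matrix protein gene, at -1.36, and tnfaip2b at -1.59. The level of vwa1 was 662, 1012 and 977 CPM in lymphatic and 346, 316 and 245 CPM in blood sums. For ctgfa, a matrix-associated growth factor gene at log2 -1.85, 1 lymphatic well gave 15 of 58 UMIs. These genes were chosen after their values were seen.

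The 60 wells that passed both minimums had 353, 454 and 5129 CPM of aqp1a.1 and 447, 397 and 0 CPM of cxcl12a on plates 1, 2 and 3. The plate 3 value rests on 8 wells with 8189 UMIs.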
